A study of Homo sapiens with 16 samples.

Results

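The plasminogen activator system was followed through 9 genes, PLAU, PLAUR, PLAT, SERPINE2, SERPINB2, SERPINB7, SERPINB8, ANXA2 and S100A10, picked by symbol from the 57500 genes of the count table. All 9 were found, and all 9 passed the filter on low counts that left 15566 genes. Polyadenylated RNA had been sequenced from MDA-MB-231, an established human breast cancer line, carrying a doxycycline-inducible hairpin: either shScramble, a scrambled control, or shAKAP2, directed against the A-kinase anchoring protein gene AKAP2. Each hairpin line was grown without doxycycline (uninduced) or with it (induced), giving 4 groups of 4 libraries. All cells thus carried a hairpin, and both induced groups received the drug. The labels name biological replicates, without saying whether these were separate cultures, so each p-value rests on library-to-library spread, part of which may be technical. The dose and duration of doxycycline, and whether each line is a clone or a pool, are not given in the labels.

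Plasminogen is the inactive precursor of plasmin, a broad protease that dissolves fibrin and degrades matrix. Urokinase (uPA, encoded by PLAU) and tissue plasminogen activator (tPA, encoded by PLAT) cut plasminogen to plasmin. The urokinase receptor (uPAR, encoded by PLAUR) holds uPA at the cell surface, and serpins, suicide inhibitors that trap proteases, limit both activators. The annexin A2 and S100A10 proteins form a complex that binds tPA and plasminogen on the membrane. In breast cancer, uPA, uPAR and their inhibitors are known for their link to invasion.

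When the AKAP2 hairpin was induced, the receptor gene PLAUR and the serpin gene SERPINB7 rose while both activator genes, PLAT and PLAU, fell. Thus 4 of the 9 genes were called, 2 in each direction, against 28.3% of all genes tested (13.1% higher and 15.2% lower). The log2 fold changes were 1.21 for PLAUR, 2.04 for SERPINB7, -1.01 for PLAT and -0.36 for PLAU. The median over the 9 genes was 0.08, beside 0.00 over all genes. A gene was called at an adjusted p under 0.05 from edgeR's quasi-likelihood test, adjusted by Benjamini-Hochberg over all genes tested. Levels are CPM, counts relative to the scaled library total.

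The start regions of genes that moved together or apart are shown because PLAUR and SERPINB7 rose and PLAU fell. They are RefSeq promoters of GRCh38.p14, 250 bases before to 50 bases after a start, in the direction of the gene, with the AP-1 word TGAGTCA in capitals. PLAUR lies on the minus strand at chr19:43670120-43670419, SERPINB7 on the plus strand at chr18:63775168-63775467 and chr18:63777531-63777830, and PLAU on the plus strand at chr10:73910882-73911181.
PLAUR: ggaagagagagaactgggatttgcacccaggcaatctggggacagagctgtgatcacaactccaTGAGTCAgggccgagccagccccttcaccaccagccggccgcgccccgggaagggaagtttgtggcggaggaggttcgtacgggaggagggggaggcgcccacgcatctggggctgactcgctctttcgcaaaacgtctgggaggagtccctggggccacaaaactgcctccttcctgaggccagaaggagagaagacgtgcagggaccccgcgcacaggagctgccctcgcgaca
SERPINB7, start region 63775168: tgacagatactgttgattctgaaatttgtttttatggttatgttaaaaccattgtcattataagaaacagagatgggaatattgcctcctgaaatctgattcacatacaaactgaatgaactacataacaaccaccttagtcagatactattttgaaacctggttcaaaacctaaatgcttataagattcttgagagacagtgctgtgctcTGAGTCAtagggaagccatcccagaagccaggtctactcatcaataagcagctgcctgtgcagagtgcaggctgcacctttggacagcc
SERPINB7, start region 63777531: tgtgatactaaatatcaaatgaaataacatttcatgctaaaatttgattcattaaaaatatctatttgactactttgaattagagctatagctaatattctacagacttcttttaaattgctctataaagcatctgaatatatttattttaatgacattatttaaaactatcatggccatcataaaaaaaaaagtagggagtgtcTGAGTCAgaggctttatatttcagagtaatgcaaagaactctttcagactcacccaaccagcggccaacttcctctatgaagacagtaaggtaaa
PLAU: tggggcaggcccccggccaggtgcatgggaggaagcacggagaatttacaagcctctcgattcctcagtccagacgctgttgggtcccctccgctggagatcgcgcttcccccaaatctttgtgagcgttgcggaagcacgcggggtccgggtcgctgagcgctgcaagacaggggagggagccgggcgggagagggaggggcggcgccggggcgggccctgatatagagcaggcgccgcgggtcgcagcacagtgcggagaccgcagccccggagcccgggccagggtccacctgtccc

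The word began at position -186 from the start of PLAUR, and at -39 and -45 from these starts of SERPINB7. It was searched as TGAGTCA and as its reverse complement TGACTCA, which are the same site read on either strand. Of 12 promoters matched for 8 of the 9 genes, 5 held it, the other 2 being those of ANXA2 (at -127) and SERPINB8 (at -28). PLAT, which lies on chromosome 8, was left out of the matching, so its promoters were not searched. These letters were in neither PLAU promoter and not in the third SERPINB7 promoter. Bases outside these regions and variants of the word were not searched, so AP-1 sites elsewhere in PLAU would not show here. Among all 35116 promoters of this length, 1738 (4.95%) held the word. A match describes the sequence only.

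Total counts per library ranged from 24482997 to 37472525. The targeted gene AKAP2 had 3, 0, 1 and 0 counts in the induced shAKAP2 libraries against 36 to 53 in the uninduced ones, and 22 to 87 in shScramble libraries. AKAP2 overlaps a readthrough gene, so its counts may miss shared bases. The cells had the vimentin-rich profile of MDA-MB-231, with VIM at 1400 CPM in uninduced shScramble. CDH1, which encodes E-cadherin, was at 0.542 CPM in that group, and ESR1 had 1 count over all 16 libraries. Other epithelial markers were higher in that group, with KRT8 at 530, KRT18 at 342, KRT19 at 183 and EPCAM at 13.3 CPM. VIM was called lower when the AKAP2 hairpin was induced (log2 -0.18, adjusted p = 0.034). Replicate 1 of both shScramble groups stood apart from its group, with a root mean square deviation of 0.42 and 0.46 (log2) against 0.29 to 0.35 in the other shScramble libraries. Calls of the 9 genes that change without those 2 libraries are given with and without them.

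PLAU encodes urokinase. In the shAKAP2 line it stood at 527, 496, 545 and 480 CPM without doxycycline and at 392, 417, 408 and 378 CPM with it. Every induced library was below every uninduced one. The change was a log2 fold change of -0.36 (SE 0.111, adjusted p = 0.0194, n = 4 against 4). In the shScramble line PLAU stood at 391, 499, 639 and 561 CPM without and at 544, 645, 734 and 643 CPM with the drug. Those groups overlapped, and the difference of 0.30 (SE 0.111) was not called (adjusted p = 0.331). Without both shScramble replicate 1 libraries it was 0.25 and called (adjusted p = 0.0338). The doxycycline effects of the lines differed by -0.66 (SE 0.157, adjusted p = 0.00623). The call in the shAKAP2 line was lost without induced replicate 4 (adjusted p = 0.0542) or without uninduced replicate 3 (adjusted p = 0.0567), with log2 fold changes from -0.39 to -0.33 over all 16 libraries left out in turn.

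PLAT encodes tissue plasminogen activator, and its level differed in all 5 comparisons. Uninduced shAKAP2 libraries held 119, 113, 115 and 130 CPM, and induced ones 52.9, 59.4, 54.2 and 70.1 CPM. No induced library reached any uninduced one, and the level fell 2.02-fold (log2 -1.01, SE 0.114, adjusted p = 1.34e-06). In shScramble cells PLAT went the other way, from 232, 173, 172 and 172 CPM to 339, 257, 264 and 253 CPM. Those groups did not overlap either, and the rise was 1.48-fold (log2 0.57, SE 0.111, adjusted p = 0.0105). PLAT was the only one of the 9 genes called in that comparison, in which 1.08% of all genes were called. The effects of the lines differed by -1.58 (SE 0.159, adjusted p = 7.34e-07), the interaction of hairpin line and drug.

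The rise of PLAT in shScramble cells depended on which libraries entered. It was not called without uninduced replicate 2, 3 or 4 (adjusted p = 0.0581, 0.0501 and 0.0533), nor when the fit held only those 2 groups (adjusted p = 0.136), and the log2 fold change stayed between 0.46 and 0.69. Markers of blood and myeloid cells moved in the same direction: the summed level of 13 such genes, mostly LAPTM5, was 91.0 to 109 CPM without and 144 to 197 CPM with doxycycline in shScramble, and 79.7 to 93.2 and 54.5 to 72.8 CPM in shAKAP2. The 9 fibroblast markers summed to 24.97 to 46.7 and 46.7 to 70.5 CPM in shScramble, and to 21.7 to 33.6 and 19.6 to 21.8 CPM in shAKAP2. COL1A2 was the largest part in shScramble (means 17.7 and 31.9 CPM), and its rise there was not called. The rise of PDGFRB there was called (log2 0.77, adjusted p = 0.0128), and COL3A1 fell there (log2 -0.17), not called. In shAKAP2 the means of COL1A1 (6.55 and 7.12 CPM) and LUM (1.63 and 2.59 CPM) rose, neither called, and those of the others fell. Of these, COL1A2 (log2 -1.085, adjusted p = 0.00504), COL3A1 (-3.965, adjusted p = 0.000299) and DCN (-5.89, adjusted p = 5.65e-05) were called lower. The 5 endothelial markers summed to 5.24 to 9.825 and 10.4 to 13.9 CPM in shScramble, and to 4.26 to 5.84 and 3.33 to 8.36 CPM in shAKAP2. No blood or fibroblast marker was at 0 in a whole group, and the part of these lists in the PLAT result was not tested. In bulk RNA, fewer cells that express a gene and less RNA per cell cannot be told apart.

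**Figure D1:**
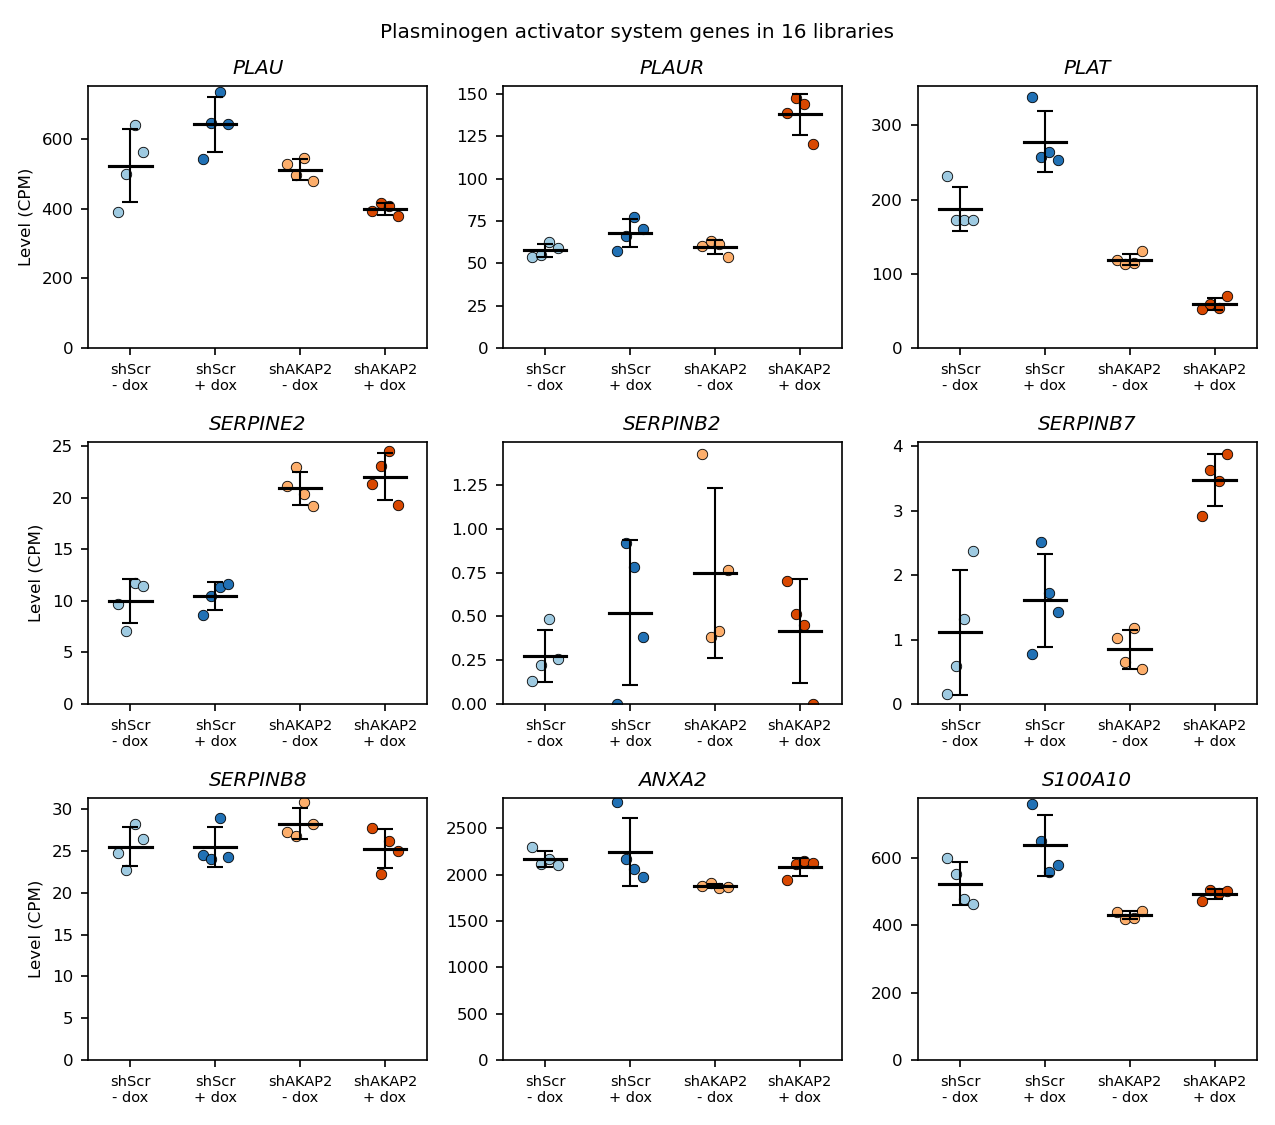
Level of each of the 9 genes (CPM, linear axis from 0) in the 4 groups. Points are single libraries, wide bars the mean and error bars the SD of 4 libraries. The 4 induced shAKAP2 libraries sit at 121 to 148 CPM for PLAUR, above all others, and at 52.9 to 70.1 CPM for PLAT, below all others.

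PLAUR encodes uPAR, the membrane-anchored receptor of urokinase. Its level in shAKAP2 cells was 60.1, 63.3, 61.5 and 53.6 CPM without doxycycline and 139, 148, 144 and 121 CPM with it. The lowest induced library was thus far above the highest library of any other group, which was an induced shScramble library at 77.4 CPM. The rise was 2.31-fold (log2 1.21, SE 0.0893, adjusted p = 2.59e-09). Uninduced shScramble libraries held 54.0, 55.2, 62.5 and 59.3 CPM and induced ones 57.4, 66.2, 77.4 and 70.6 CPM. They overlapped, and the difference of 0.23 (SE 0.0887) was not called (adjusted p = 0.339). Without both shScramble replicate 1 libraries it was 0.28 and called (adjusted p = 0.0246). The difference between the lines' effects was 0.98 (SE 0.125, adjusted p = 1.21e-05).

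Urokinase and its receptor therefore moved in opposite directions in the shAKAP2 line. Per kilobase of exon, PLAU was 11.8 to 13.5 times PLAUR in uninduced shAKAP2 libraries and 4.25 to 4.73 times PLAUR in induced ones. In shScramble the ratio was 10.9 to 15.4 without and 13.8 to 14.7 with doxycycline. The 4 induced shAKAP2 libraries were the only ones with a ratio under 10.9. The order of PLAT and PLAUR also turned: per kilobase PLAT stood at 28.3 ± 4.49 and PLAUR at 12.96 ± 0.876 in uninduced shScramble, and at 18.0 ± 1.17 and 13.4 ± 0.944 in uninduced shAKAP2 (CPM per kilobase, SD, n = 4). In induced shAKAP2 they stood at 8.94 ± 1.18 and 31.0 ± 2.70, so the order turned within that line, from a gap that was already smaller there before induction. The ratio of PLAU to PLAT per kilobase was 8.26 to 10.7 in uninduced and 12.1 to 16.9 in induced shAKAP2 libraries, with no overlap; ratios were not tested.

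**Figure D2:**
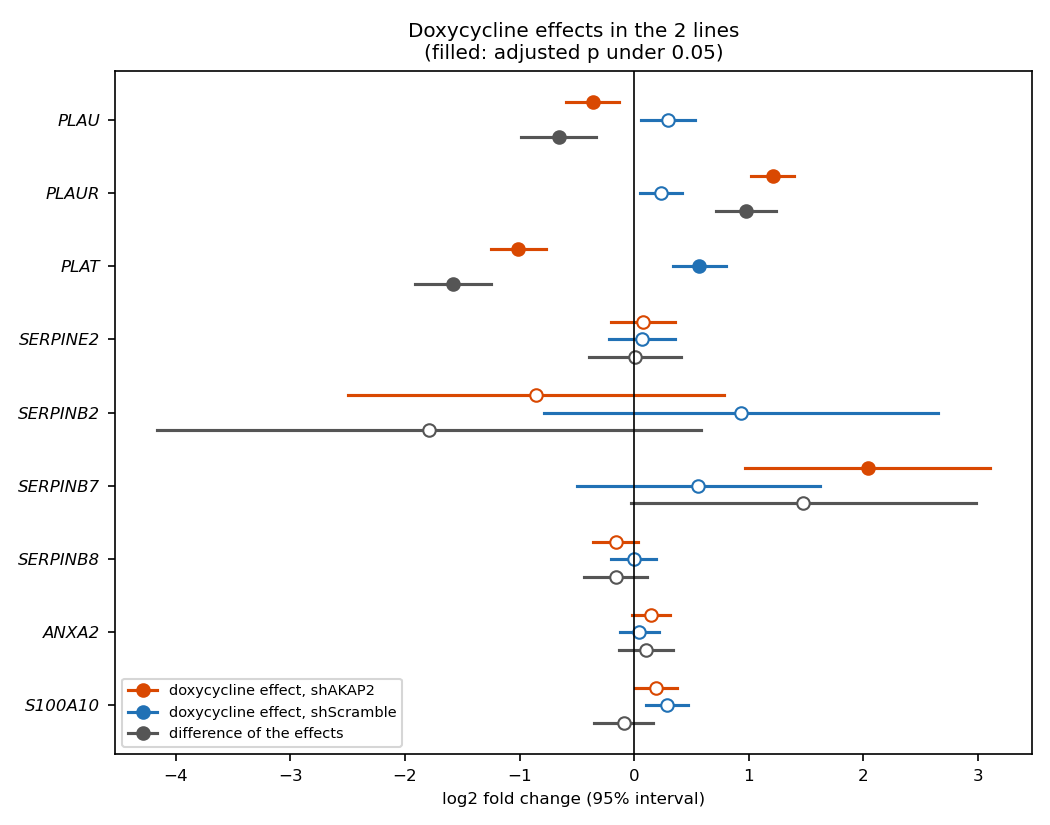
Doxycycline effect on each gene in the shAKAP2 line and in the shScramble line, and the difference between them, as log2 fold changes with 95% intervals. Filled points passed an adjusted p under 0.05. PLAU and PLAT lie on opposite sides of 0 in the 2 lines, and the intervals of SERPINB2 are the widest.

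SERPINE2 encodes protease nexin-1, a serpin that inhibits thrombin, urokinase and plasmin. It differed between the hairpin lines and not with the drug. Uninduced shScramble libraries held 9.72, 7.12, 11.7 and 11.4 CPM, and uninduced shAKAP2 libraries 21.1, 23.0, 20.3 and 19.2 CPM. All shAKAP2 libraries were above all shScramble libraries, a 2.09-fold difference (log2 1.06, SE 0.137, adjusted p = 2.67e-05). With doxycycline the levels were 8.58, 10.4, 11.4 and 11.6 CPM in shScramble and 21.3, 23.1, 24.5 and 19.3 CPM in shAKAP2. The difference between lines was again 1.07 (SE 0.137, adjusted p = 3.32e-06). The drug effect was 0.08 (95% interval -0.20 to 0.36) in shAKAP2 and 0.07 (-0.22 to 0.36) in shScramble.

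SERPINB7 encodes megsin, a clade B serpin, and was scarce. It had 30, 17, 31 and 20 counts in uninduced and 71, 99, 92 and 106 counts in induced shAKAP2 libraries. As levels these were 1.02, 0.653, 1.18 and 0.546 CPM against 2.92, 3.63, 3.46 and 3.88 CPM. The groups did not overlap, and the rise was 4.11-fold (log2 2.04, SE 0.511, adjusted p = 0.0054). In shScramble, levels ran from 0.161 to 2.38 CPM without and from 0.780 to 2.51 CPM with doxycycline. They overlapped widely, with a difference of 0.56 (SE 0.506, adjusted p = 0.833). The interaction of 1.48 (95% interval -0.02 to 2.98) was not called (adjusted p = 0.175), so a difference between the lines' effects was not shown. Without both shScramble replicate 1 libraries it was 1.64 and called (adjusted p = 0.00951).

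SERPINB2 encodes plasminogen activator inhibitor 2 and was near the limit of detection. It had 0 to 42 counts per library, with 0 in 1 induced shScramble and 1 induced shAKAP2 library. Every pair of groups overlapped, and no comparison called it: the interaction of -1.79 had a 95% interval from -4.17 to 0.59. SERPINB8, a furin inhibitor, was steadier, at 22.3 to 30.9 CPM over all 16 libraries. Its 95% interval for the drug effect was -0.36 to 0.03 in shAKAP2 and -0.20 to 0.19 in shScramble.

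ANXA2 encodes annexin A2, the membrane-binding subunit of the plasminogen-binding complex, and was at 1853 to 2779 CPM. Uninduced shAKAP2 libraries held 1879, 1906, 1853 and 1870 CPM and induced ones 1941, 2112, 2145 and 2128 CPM. The groups did not overlap, but the difference of 0.15 (SE 0.0800) was not called (adjusted p = 0.178). It was called with only those 2 groups in the fit (adjusted p = 0.00194) and without both shScramble replicate 1 libraries (adjusted p = 0.00247), at log2 differences of 0.14 and 0.15. Induced shScramble replicate 1 held 2779 CPM against 1969 to 2163 CPM in the other 3 libraries of its group. Without both replicate 1 libraries the interaction of ANXA2, 0.10 with all libraries, was 0.19 and called (adjusted p = 0.0133).

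S100A10 encodes p11, which carries the plasminogen-binding site of that complex. Without doxycycline it stood at 599.5, 554, 479 and 464 CPM in shScramble and at 441, 420.4, 423 and 444 CPM in shAKAP2. The lines did not overlap, and the log2 difference was -0.28 (SE 0.0878, adjusted p = 0.0327). Leaving out any 1 of 6 libraries ended that call, at adjusted p values of up to 0.0918. With doxycycline, shScramble libraries held 762, 652, 560.0 and 580 CPM and shAKAP2 libraries 473, 506, 497.5 and 501 CPM. The difference of -0.37 (SE 0.0878) was called (adjusted p = 0.0022), and stayed called without each library in turn.

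The drug effect on S100A10 was 0.19 in shAKAP2 (SE 0.0878, adjusted p = 0.107), with no overlap, and 0.28 in shScramble (SE 0.0877, adjusted p = 0.173), with overlap. Neither was called in the fit of all 4 groups with all libraries. The effect in shAKAP2 was called with only those 2 groups in the fit (0.19, adjusted p = 0.000287). Without both shScramble replicate 1 libraries both effects were called, at 0.19 (adjusted p = 0.00252) and 0.26 (adjusted p = 0.00439). Per kilobase of exon, S100A10 over ANXA2 was 1.26 to 1.495, 1.56 to 1.72, 1.26 to 1.36 and 1.33 to 1.39 in uninduced shScramble, induced shScramble, uninduced shAKAP2 and induced shAKAP2. Induced shScramble libraries thus had the highest ratios, above every library of the other groups.

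**Figure D3:**
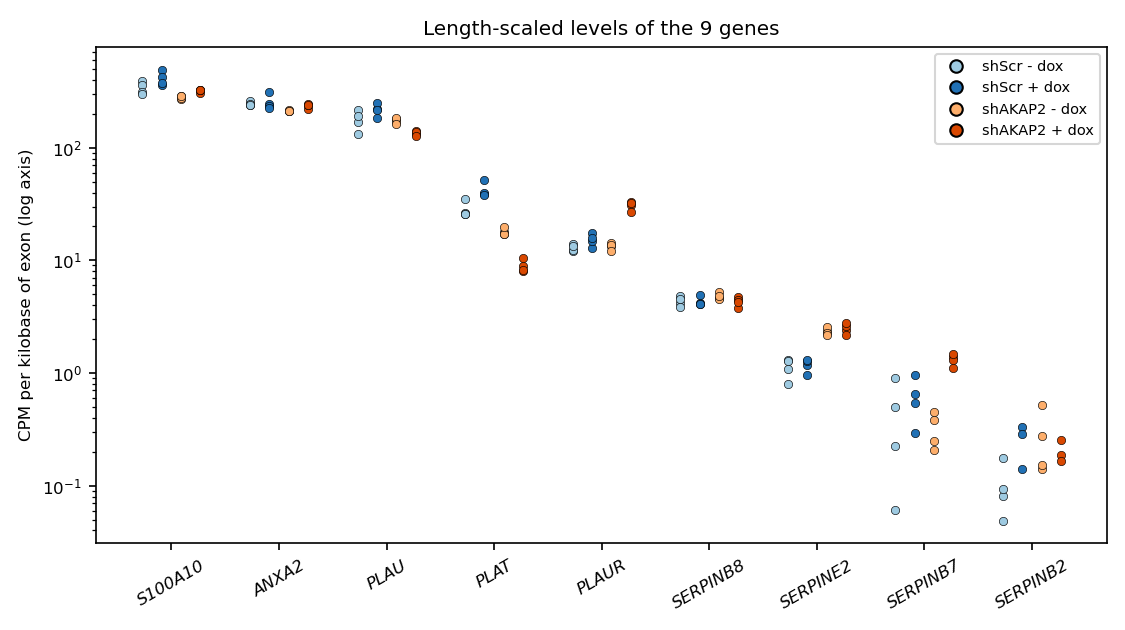
Length-scaled level of the 9 genes (CPM per kilobase of exon, log axis) in the 4 groups. Points are single libraries, and the 2 libraries with 0 counts of SERPINB2 are not drawn. S100A10, ANXA2 and PLAU are the most abundant in every group, and PLAT and PLAUR change places in induced shAKAP2.

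Between the lines without doxycycline, 3 of the 9 genes were called, against 18.0% of all genes: SERPINE2 was higher in shAKAP2, and PLAT (log2 -0.65, SE 0.112, adjusted p = 0.000643) and S100A10 were lower. PLAU (-0.03, 95% interval -0.26 to 0.20) and PLAUR (0.05, -0.14 to 0.23) were not called. ANXA2 was lower by -0.21 in shAKAP2 with no overlap, and was not called (adjusted p = 0.0744). It was called with no filter (adjusted p = 0.0491), with only the 2 groups (adjusted p = 0.00732), without both shScramble replicate 1 libraries (-0.18, adjusted p = 0.00141) and without induced shScramble replicate 1 alone (adjusted p = 0.00229). The number called was thus 4 in those 4 fits, and 2 to 4 with each library left out in turn. The lines thus differed in some of these genes before the hairpin was induced. With doxycycline 5 of 9 were called, against 40.2% of all genes. PLAT was 4.70-fold lower in induced shAKAP2 than in induced shScramble (log2 -2.23, SE 0.117, adjusted p = 1.78e-11). PLAUR was higher by 1.02 (SE 0.0888, adjusted p = 1.82e-08) and PLAU lower by -0.69 (SE 0.111, adjusted p = 6.68e-05). SERPINB7 was 1.11 higher with no overlap but was not called (adjusted p = 0.0781). It was called with limma-voom (1.20, adjusted p = 0.0246), with only the 2 groups in the fit (1.10, adjusted p = 0.0118) and without both shScramble replicate 1 libraries (0.88, adjusted p = 0.0286). Leaving out uninduced shScramble replicate 1 or 4 also gave a call (adjusted p = 0.0155 and 0.0382). The interaction called 3 of 9, PLAUR higher and PLAT and PLAU lower, against 18.0% of all genes (7.53% higher and 10.5% lower).

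Across the 16 libraries, some of the 9 genes followed each other in log2 CPM. Libraries share their group, so these Pearson correlations describe group means as well as libraries. ANXA2 and S100A10, the subunits of 1 complex, had r = 0.822. PLAUR and SERPINB7 had r = 0.772, PLAU and PLAT 0.716, and PLAT and SERPINE2 -0.837. Of all tested genes, those most like PLAUR included LRP12 (0.979) and ATP13A1 (0.973). Most like PLAT were MATN2 (0.991), TIMP3 (0.981) and CST7 (0.978). PLAU was followed most closely by RAB15 (0.905), UPF3A (0.896) and CREB3L1 (0.895). For SERPINE2 these were TOR1B (0.955), CD44 (0.953) and LRPPRC (0.951). ANXA2 resembled MYL12A (0.96), TMSB10 (0.955) and MYL12B (0.953), and S100A10 resembled H1F0 (0.947), NREP (0.947) and CD55 (0.944). The nearest to SERPINB7 were PHTF2 (0.925), SBDS (0.921) and LSM6 (0.915). For SERPINB8 and SERPINB2 the highest values were lower, at 0.755 for CEP170B, 0.748 for FNBP4 and 0.73 for EME1, and at 0.858 for CMPK2, 0.804 for DCPS and 0.789 for HERC6.

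Other genes of the pathway were taken from lists, and no list was tested as a set. Over all genes tested, 13.1% were called higher and 15.2% lower when the AKAP2 hairpin was induced. The list counts that follow are to be read beside these shares. Of 8 inhibitors and activation factors tested, 2 fell when the AKAP2 hairpin was induced. THBD, which encodes thrombomodulin, fell by 1.29 on the log2 scale (adjusted p = 0.000324), from 41.9 ± 3.43 to 17.2 ± 2.97 CPM. TFPI2, a Kunitz inhibitor of plasmin, fell by 0.82 (adjusted p = 0.00157), and its interaction of -0.57 was not called (adjusted p = 0.116).

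Of 10 plasminogen receptors tested, 3 rose and none fell (median 0.05): ACTB by 0.31, KRT8 by 0.40 and HMGB1 by 0.30, each a protein with other main roles. The interaction was called for HMGB1 (0.43, adjusted p = 0.00186) but not for ACTB (0.18, adjusted p = 0.0929) or KRT8 (0.20, adjusted p = 0.244), whose differences in shScramble were 0.13 and 0.19. Without both shScramble replicate 1 libraries the interactions of ACTB and KRT8 were called (0.16 and 0.21, adjusted p = 0.0138 and 0.0144), as were those of TFPI2 (-0.53, adjusted p = 0.0301) and of the annexin gene ANXA1 (0.39, adjusted p = 4.28e-05). Among 16 tested receptor partners and clearance receptors of uPAR, 1 rose and 5 fell (median -0.25). MRC2, the collagen receptor that associates with uPAR, fell by 1.09 (adjusted p = 1.44e-07), CAV1, the caveolae coat gene, by 0.66, and the fibronectin receptor gene ITGA5 by 0.42. FPR1 and LRP8 were the other two that fell, and ITGB3, an integrin subunit that binds vitronectin, was the 1 that rose (log2 1.28, adjusted p = 0.0287). These 3 were named after their values were seen.

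None of 3 tested proteases that activate pro-urokinase was called. CTSB, which encodes cathepsin B, was the most abundant, with a log2 fold change of -0.34 (adjusted p = 0.0578). It was called by DESeq2 (adjusted p = 0.0326), by limma-voom (adjusted p = 0.0483) and with a replicate block (adjusted p = 0.0182). Fits of only the 2 shAKAP2 groups (adjusted p = 8.97e-08) and without both shScramble replicate 1 libraries (adjusted p = 4.82e-07) called CTSB too. Of 12 tested genes listed for growth factors and matrix substrates acted on by plasmin or urokinase, 5 fell, against 15.2% of all genes. The list also holds MET, which encodes a receptor and not such a substrate. MET, the receptor of hepatocyte growth factor, fell by 0.87 (adjusted p = 8.79e-08), and LTBP1, which tethers latent TGF-beta to matrix, by 1.27 (adjusted p = 4.11e-07). PDGFD, BDNF and TGFB1, named after their values were seen, also fell in shAKAP2.

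In the serpin families, 2 of 4 tested clade B genes fell, SERPINB9, a granzyme B inhibitor, by 0.89 and SERPINB6, an inhibitor of cathepsin G, by 0.57 (median -0.53). SERPINB7 was thus the only clade B gene of those tested, members included, that rose. Of 3 serpins of other clades, SERPINH1, a collagen chaperone, rose by 0.42, and SERPINA1, which encodes alpha-1 antitrypsin, was not called (-0.41, adjusted p = 0.145). SERPINA1 was called with only the 2 shAKAP2 groups (adjusted p = 6.54e-05), with a replicate block (0.0274) and without both shScramble replicate 1 libraries (0.001475). Its interaction of -0.83 was called (adjusted p = 0.0498), but not without any 1 of 13 libraries (adjusted p up to 0.0933). Among 11 annexins 2 rose and 2 fell (median -0.13), led by ANXA1 at 0.41, whose interaction of 0.30 was not called (adjusted p = 0.054). ANXA8 fell by 1.65 and ANXA6 by 0.17, and both calls were lost without single libraries (adjusted p up to 0.0804 and 0.149). Both calls were also lost with no filter (adjusted p = 0.0722 and 0.125), and that of ANXA8 with limma-voom (adjusted p = 0.1295). ANXA7, named after its value was seen, was the other that rose.

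Of 7 S100 genes tested, 2 rose and 3 fell (median -0.32). S100A4, the metastasis-associated family member, fell from 604 ± 42.8 to 306 ± 27.5 CPM (log2 -0.98, adjusted p = 0.000727), S100A2 fell by 0.61, and S100A11 rose by 0.32. The interaction of S100A11, 0.10, was not called (adjusted p = 0.582). S100A16 rose and S100A6 fell, both named after their values were seen. Of 7 Ly6 genes, which share the fold of uPAR, 2 rose and 1 fell (median 0.17). LYPD6 rose by 0.49, and the scarce LYPD6B rose from 0.122 to 0.821 CPM while LYPD1 fell from 1.04 to 0.136 CPM. Of 14 AP-1 and Ets factors, which are known to bind the urokinase gene, 2 rose and 3 fell (median 0.04). FOSL2, an AP-1 subunit, fell from 205 ± 10.6 to 71.6 ± 3.69 CPM (log2 -1.52, SE 0.0859, adjusted p = 4.97e-11). ATF3, a stress-induced factor, rose by 1.24, and the Ets factor gene ETV4 by 0.31. JUN and FOSL1, named after their values were seen, were the other two that fell.

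**Figure D4:**
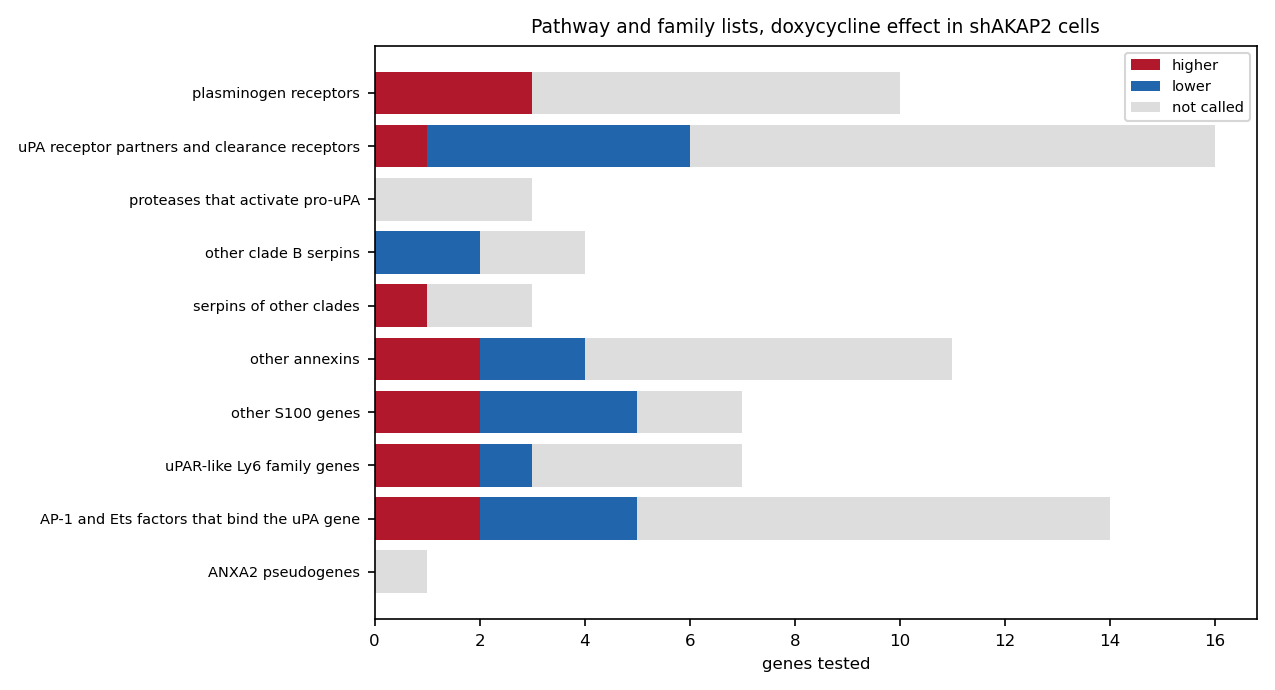
Number of tested genes of each of 10 lists that were called higher, called lower or not called for the doxycycline effect in shAKAP2 cells (adjusted p under 0.05). The bars differ in length because lists differ in size, and 5 of the 10 lists hold calls in both directions. Over all genes tested, 13.1% were called higher and 15.2% lower.

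The 7-base word GAACACA, chosen from earlier results of these data, was present in the 3' untranslated region of 33.1% of genes called lower in induced shAKAP2, 6.53% of genes called higher and 11.1% of those not called. Because the word came from these same data, the shares describe the classes and are no test of the word. Lengths of the regions were not compared between the classes. None of the 9 genes held the word, PLAU and PLAT included, and AKAP2 held it once. Of the list genes described above that fell, FOSL2, JUN, THBD, ANXA8, LYPD1, PDGFD and BDNF held it, and MRC2, CAV1, ITGA5, FPR1, LRP8, MET, LTBP1, TGFB1, TFPI2, SERPINB9, SERPINB6, ANXA6, S100A4, S100A2, S100A6 and FOSL1 did not.

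The positions, on GRCh38 with GENCODE 29, bear on how reads were shared between genes. PLAU (ENSG00000122861) lies at chr10:73909177-73917497 on the plus strand and overlaps C10orf55 on the other strand over 916 exonic bases (31.05% of those of PLAU). C10orf55 had 1179 counts in all against 239532 for PLAU. Were strand not used in counting, reads in the shared bases may be missing from both, so the per-kilobase level of PLAU is uncertain. SERPINB7 (ENSG00000166396, chr18:63752935-63805376), SERPINB2 (ENSG00000197632, chr18:63871692-63903890) and SERPINB8 (ENSG00000166401, chr18:63969925-64019779) are neighbours on the plus strand. SERPINB7 rose, and neither SERPINB2 nor SERPINB8 was called. SERPINB8 shares 370 exonic bases with HMSD, which had 2812 counts against 12048, so its level is uncertain. SERPINB2 shares 547 exonic bases with SERPINB10, which had 4 counts. PLAUR (ENSG00000011422, chr19:43646095-43670547), PLAT (ENSG00000104368, chr8:42175233-42207724), SERPINE2 (ENSG00000135919, chr2:223975112-224039319), ANXA2 (ENSG00000182718, chr15:60347134-60402883) and S100A10 (ENSG00000197747, chr1:151982915-151994390) lie on the minus strand and share no exonic base with another gene. ANXA2 has processed pseudogenes, of which ANXA2P2 had 2512 counts against 964688 for ANXA2 and was not called.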

How the data were processed

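The authors deposited a table of raw read counts with 57500 genes and 16 libraries, and every column was matched to a library by the labels. STAR 2.5.2b, featureCounts, Subread 1.5.2 and GRCh38 were used, per the submitters' processing notes. The annotation release and any use of strand in counting were not stated in the sources used, so genes overlapping on opposite strands cannot be told apart.

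Counts were fitted with edgeR 4.0.16 (limma 3.58.1, R 4.3.3): filterByExpr (minimum count 10) kept 15566 genes, TMM scaled the libraries, and a robust quasi-likelihood model had 1 mean per group (12 residual degrees of freedom, biological coefficient of variation 14.4%). Adjusted p values are Benjamini-Hochberg over all genes tested, called under 0.05, and SEs derive from the F statistic. Counts were also simulated for 15566 genes, of which 67, 67 and 66 were changed 1.5-fold, 2-fold and 4-fold. The shAKAP2 doxycycline comparison recovered 53.7%, 70.1% and 93.9% of them, and 5.23% of its calls were false. For the interaction these were 26.9%, 58.2% and 83.3%, with 4.27%. Far more genes were called in the real data (4405 and 2802), so these shares need not hold there.

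The members and lists were chosen with earlier results of these data known. Named genes were the 9 members; from each list up to 3 called genes with the smallest p in the shAKAP2 doxycycline effect or the interaction (with none called, the most abundant); and for each member the 3 genes with the highest Pearson r of log2 CPM (mean at least 1 CPM, no clone names). Some results under this rule are not reported here. Promoters came from RefSeq (GRCh38.p14), positions and exon lengths from GENCODE 29. Alternatives were DESeq2 1.42.0, limma-voom, other size factors, no filter, fewer groups, a replicate block and leaving out libraries; for the named list genes they were added after seeing the data.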

Additional observations from a re-analysis of the deposited data

Results flagged for a closer look

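The doxycycline effects differed between the shAKAP2 and shScramble lines, by the interaction term of edgeR's quasi-likelihood test, for PLAU (log2 difference -0.66, adjusted p = 0.00623), PLAUR (0.98, adjusted p = 1.21e-05) and PLAT (-1.58, adjusted p = 7.34e-07).

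Single libraries stood far from the other 3 of their group, by Dixon's criterion, in 4 of the 36 gene and group combinations. PLAT was high in replicate 1 of uninduced shScramble (232 CPM) and in replicate 1 of induced shScramble (339 CPM), the libraries that stood apart over all genes. SERPINB8 was high in replicate 3 of induced shScramble (28.99 CPM). ANXA2 was low in replicate 1 of induced shAKAP2 (1941 CPM). Chance alone would mark about 5% of groups.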

How the results depend on the processing

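The calls and directions of PLAUR, PLAT, SERPINB7 and PLAU in the shAKAP2 doxycycline effect, and of PLAT, PLAUR and PLAU in the interaction, held under every alternative run, except the 2 losses of PLAU given above. Among the 9 genes, the number called in the interaction, 3 with all libraries, was 5 without both shScramble replicate 1 libraries (3 to 4 with each library left out). For shAKAP2 doxycycline, 4 in the fit of all groups, it was 6 with only the 2 groups in the fit. It was also 6 without both shScramble replicate 1 libraries, and 3 to 6 with each library left out. For shScramble doxycycline, 1 with all libraries, it was 0 with only the 2 groups in the fit, 4 without both replicate 1 libraries and 0 to 2 with each library left out. Over all genes, that comparison called 168, but 288 with DESeq2, 37 with only the 2 groups, 1002 without both replicate 1 libraries and 101 to 409 with each library left out. The interaction called 2802, and 4823 without both replicate 1 libraries. The lines without doxycycline differed in 2795 genes, 1669 to 3941 with each library left out. Directions turned only for differences that were not called. Without both replicate 1 libraries these were ANXA2 between the lines with doxycycline (0.00951), ANXA2 in shScramble (-0.0423) and the interaction of SERPINE2 (-0.0698). With limma-voom they were SERPINB7 between the uninduced lines (0.22) and the interaction of SERPINE2 (-0.0149). With each library left out, the ranges across 0 were -0.163 to 0.00965 for ANXA2, -0.737 to 0.0851 for SERPINB2 and -0.0558 to 0.0568 for SERPINB8 between the induced lines, -0.143 to 0.0834 for PLAU and -0.757 to 0.324 for SERPINB7 between the uninduced lines, -0.161 to 0.00109 for S100A10 and -0.0834 to 0.134 for SERPINE2 in the interaction, and -0.0707 to 0.104 for ANXA2, -0.0707 to 0.0486 for SERPINB8 and -0.0571 to 0.158 for SERPINE2 in shScramble. The cause was not tested.

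With the replicate number as a block, the number of the 9 genes called was the same in each of the 5 comparisons, and the interaction of SERPINE2 was -0.001285. Whether the numbers pair the libraries is not settled. Of 24 same-numbered pairs across groups, 2 had deviations correlated above 0.1 (r from -0.0996 to 0.4), and 9 correlated best with their own number. Those 2 pairs both lay between uninduced and induced shScramble, at replicate 1 (r = 0.4) and replicate 3 (r = 0.197). A pairing within the shScramble line alone was not tested, and the main fit used none. Depth limits SERPINB2 and SERPINB7, whose intervals are wide.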
